A study of Mus musculus with 13 samples.

Results

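Skeletal muscle genes were followed through cultures of mouse embryonic fibroblasts (MEFs), connective tissue cells grown out of whole embryos. The 9 genes, Myh3, Myh8, Tnnt3, Actc1, Acta1, Mylpf, Chrna1, Myog and Myod1, were taken by symbol from the 24495 genes of the deposited count table. Messenger RNA was sequenced in 13 libraries of 4 groups. Every group came from embryonic day 12.5 MEFs of the strain background given as V6.5 129XBI/6 that lack Tet2, an enzyme that oxidises methylated cytosine. All of them also carried a doxycycline-inducible cassette of the reprogramming factors Pou5f1, Klf4, Sox2 and Myc (OKSM) with its activator rtTA. Untreated MEFs (n = 3, replicates 1, 2 and 100) stayed in fibroblast medium, and the labels do not settle whether they held the empty vector. The other groups were taken at day 5 of reprogramming after infection with a pMXs retrovirus. The retrovirus was empty (pMXs, n = 3, replicates 2, 100 and 250), carried wild-type Tet2 (Tet2-WT, n = 3, replicates 1, 2 and 250) or carried a stalling mutant of Tet2 (Tet2-E, n = 4, replicates 1, 2, 100 and 250). Day 5 cells grew on growth-arrested feeder MEFs with LIF, with PD0325901 at 1 µM to block ERK signalling, with CHIR99021 at 3 µM to activate beta-catenin, and with doxycycline at 2 µg/mL. All cells were kept at 5% oxygen. The protocols name neither a cell sort nor a step that takes out the feeders, so a day 5 library can hold feeder RNA.

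Skeletal muscle forms when precursor cells switch on the basic helix-loop-helix factors Myod1 and Myog. These factors bind E-boxes, short DNA sites with the letters CANNTG, together with MEF2 proteins, and turn on the genes of the contractile apparatus. Myosin heavy chains, troponins, sarcomeric actins and regulatory light chains build the sarcomere, and acetylcholine receptor subunits such as Chrna1 receive the nerve's signal at the muscle membrane. Whole-embryo fibroblast cultures can carry over a few muscle precursors, and sarcomeric actins can also be made by the smooth muscle-like cells of such cultures.

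Promoter sequence was available for 7 of the 9 genes (RefSeq, build GRCm38.p6). The 120 bases just before the start site are shown for 5 of them. Chrna1, Acta1 and Actc1 are shown because the results turn on them, Mylpf because it did not follow the other contractile genes, and Myog because it is the upstream factor. All are written 5′ to 3′ on the gene's strand, and capitals mark a match to an E-box (CANNTG), a CArG box (the site of serum response factor, an actin gene regulator), or a TATA box (TATAAA).
Chrna1, chr2:73580339-73580458, minus strand: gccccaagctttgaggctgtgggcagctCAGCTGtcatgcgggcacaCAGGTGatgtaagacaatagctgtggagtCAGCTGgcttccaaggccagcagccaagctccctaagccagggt
Mylpf, chr7:127211488-127211607, plus strand: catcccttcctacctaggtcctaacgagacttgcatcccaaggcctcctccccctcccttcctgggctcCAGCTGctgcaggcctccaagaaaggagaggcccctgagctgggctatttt
Acta1, chr8:123894776-123894895, minus strand: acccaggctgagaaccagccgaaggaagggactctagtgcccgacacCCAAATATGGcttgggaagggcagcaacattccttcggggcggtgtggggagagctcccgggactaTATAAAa
Actc1, chr2:114052876-114052995, minus strand: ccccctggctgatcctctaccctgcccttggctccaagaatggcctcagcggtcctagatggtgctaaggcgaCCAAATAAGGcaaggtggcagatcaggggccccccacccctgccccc
Myog, chr1:134289884-134290003, plus strand: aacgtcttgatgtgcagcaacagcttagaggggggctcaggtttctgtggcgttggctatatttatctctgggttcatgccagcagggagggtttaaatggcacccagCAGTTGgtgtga

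The Chrna1 window held 3 E-boxes, at -92 to -87, -73 to -68 and -44 to -39 from the start site, and the first and the last had the letters CAGCTG. Over the full 300-base promoters (250 bases before the start to 50 after it), with both strands searched, CANNTG matched in 7 of 7 genes and in 72.3% of all 32841 promoters. The form CAGCTG, which is contained in CANNTG, matched in 3 of 7 (Acta1, Mylpf and Chrna1) and in 16.3% of all promoters. The form CACCTG, also contained in CANNTG, matched only in Chrna1 among the 7 and in 20.2% of all promoters. A CArG box was found in the 2 actin genes, at -73 to -64 in Acta1 and -47 to -38 in Actc1, and in 1.63% of all promoters. A MEF2 site, searched as CTA, 4 bases of A or T, TA, then A or G, was found in Myh8 and in 1.86% of all promoters. The Myog window holds ctatatttat, which misses that pattern only at its last base. TATAAA was found in 4 of 7 and in 13.6%. Among these, the Actc1 match lay after the start, at 33 to 38, and the Myh8 match, at -96 to -91, was on the other strand. These are matches of letters and were not measured as bound sites.

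Total counts per library ran from 14052646 to 26265382. Levels are given as counts-per-million (CPM) with library sizes scaled by TMM. Differences are log2 fold changes ± standard error (SE) from 1 edgeR quasi-likelihood fit over all 13 libraries and 14607 tested genes. A gene is called changed when its Benjamini-Hochberg adjusted p over all tested genes was under 0.05. Tet2 RNA was 39.1 to 58.8 CPM with pMXs, 1176 to 1243 CPM with Tet2-WT and 581 to 1403 CPM with Tet2-E, the lowest of these being replicate 100. Pou5f1 was 1.27 to 3.16 CPM in Untreated and 183 to 285 CPM in the day 5 libraries. Fibroblast markers were abundant in Untreated, where 12 genes, among them Col1a1, Col3a1 and Pdgfrb, summed to 59857 to 61645 CPM.

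Acta1, the skeletal muscle alpha-actin, made up 68.5% to 95.5% of the reads of the 9 genes in every library. Per kilobase of transcript its Untreated level was 60.2 ± 7.76 CPM per kb (SD, n = 3). The next genes were Actc1 at 1.09 ± 0.316, Tnnt3 at 1.04 ± 0.266, Mylpf at 0.914 ± 0.511 and Myh8 at 0.556 ± 0.153 CPM per kb. Neighbours in the order from Actc1 to Mylpf lay within each other's SD. Below them came Myh3 at 0.278 ± 0.22, Myog at 0.247 ± 0.211, Chrna1 at 0.121 ± 0.0416 and Myod1 at 0.0946 ± 0.0899 CPM per kb, also close together for their spread. Some genes of differentiated muscle were nearly empty and others were not. Des (74.8 CPM) and Tpm2 (551 CPM in Untreated), which smooth muscle or other cells also use, were among those that were not. So were the sarcomere genes Myom1, Mylk2 and Myh1, at 47.6, 2.8 and 2.15 CPM in Untreated. Ckm, the muscle creatine kinase, had 1 read in Untreated and 0 in the day 5 libraries, Myl1 had 6 reads in Untreated, and Mb had 3 there. In bulk libraries such as these, fewer cells of a type and less RNA per cell cannot be told apart.

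Myog and Myod1, the 2 regulators among the 9 genes, had few reads, and most of them were in Untreated replicates 1 and 100. Myog had 9, 1 and 14 reads (0.375, 0.0504 and 0.682 CPM) in Untreated replicates 1, 2 and 100. At day 5 it had 0, 0 and 1 reads with pMXs, 3 reads in each Tet2-WT library, and 1, 0, 0 and 2 reads with Tet2-E. The group ranges overlapped between Untreated and each day 5 group because of Untreated replicate 2. Myod1 had 8, 0 and 4 reads in Untreated, 0 in all pMXs and all Tet2-E libraries, and 1 read in Tet2-WT replicate 2. Neither gene passed the filter on low counts, so neither was tested with the other genes. In the edgeR fit with no filter (20548 genes) Myog was lower than in Untreated with pMXs (adjusted p = 0.00413) and Tet2-E (0.00278) and was not called with Tet2-WT (0.103). Myod1 was lower in all 3 (0.0222 with pMXs, 0.0436 with Tet2-WT and 0.00818 with Tet2-E). As a description of the pooled reads, Myog was higher in Untreated than in pMXs by a ratio of 21 (95% exact counting interval 3.43 to 866). The same ratio was 2.86 (1.28 to 6.99) against Tet2-WT and 10.9 (3.3 to 56.4) against Tet2-E. Myod1 had 0 reads in pMXs and in Tet2-E, so a floor of 3 counts over the group was set there. Its pooled Untreated level, from 12 reads, was 3.51 times that floor for pMXs and 5.43 times that for Tet2-E. This bound leaves out the counting error of the 12 Untreated reads. Against the 1 read in Tet2-WT the Myod1 ratio was 12.9 (1.9 to 550). A bound and a ratio are different quantities, so no order of the day 5 groups follows from them. These intervals cover counting error only.

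Other myogenic regulators were taken from a list of 24, of which 15 could be tested. With pMXs against Untreated 4 rose and 5 fell, with a median of -0.01. Over all tested genes 70.1% were called in this comparison, 35% lower, and the median was -0.001. Myf5 and Myf6, the sister factors of Myod1, had at most 2 reads in any group, and Pax7, the marker of muscle stem cells, was between 0.0463 and 0.233 CPM in group means. Pax3, a factor of muscle precursors and of neural crest, rose from 0.604 ± 0.0432 to 3.8 ± 0.89 CPM (2.63 ± 0.42, adjusted p = 4.29e-05). Id1 (0.94 ± 0.11) and Id2 (1.41 ± 0.13), which keep helix-loop-helix factors off DNA, rose as well. The largest fall of the list was in Mdfi, the MyoD family inhibitor (-1.33 ± 0.36, adjusted p = 0.00394). Eya2 (-1.19 ± 0.31), a transcriptional cofactor of muscle precursors, fell, as did Mef2c (-0.96 ± 0.30), a partner of the myogenic factors. Mef2d, of the same family as Mef2c, rose (0.34 ± 0.10, adjusted p = 0.00757).

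Of the 7 genes that could be tested, 6 were lower with pMXs than in Untreated and none was higher, where 70.1% of all tested genes were called, 35% lower. For 5 of these 7 the libraries of the groups did not overlap, against 72% of all tested genes. With Tet2-WT 4 were lower and 1 higher, where 72.7% of all tested genes were called, 35.3% lower and 37.3% higher. In that comparison 4 did not overlap, against 74.3% of all. With Tet2-E 4 were lower and none higher, where 72.8% of all tested genes were called, 36.1% lower and 36.7% higher, and 4 did not overlap, against 68.7% of all. The 3 comparisons share the Untreated libraries, so they are not independent. Tnnt3 passed the filter only through its Untreated libraries, and Myh8 mostly so, which means that a difference there was a condition for being tested. Chrna1 passed through 3 Tet2-WT and 2 Untreated libraries, with no pMXs and no Tet2-E library at the level the filter asks for, so the same holds for its differences from those groups.

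**Figure D1:**
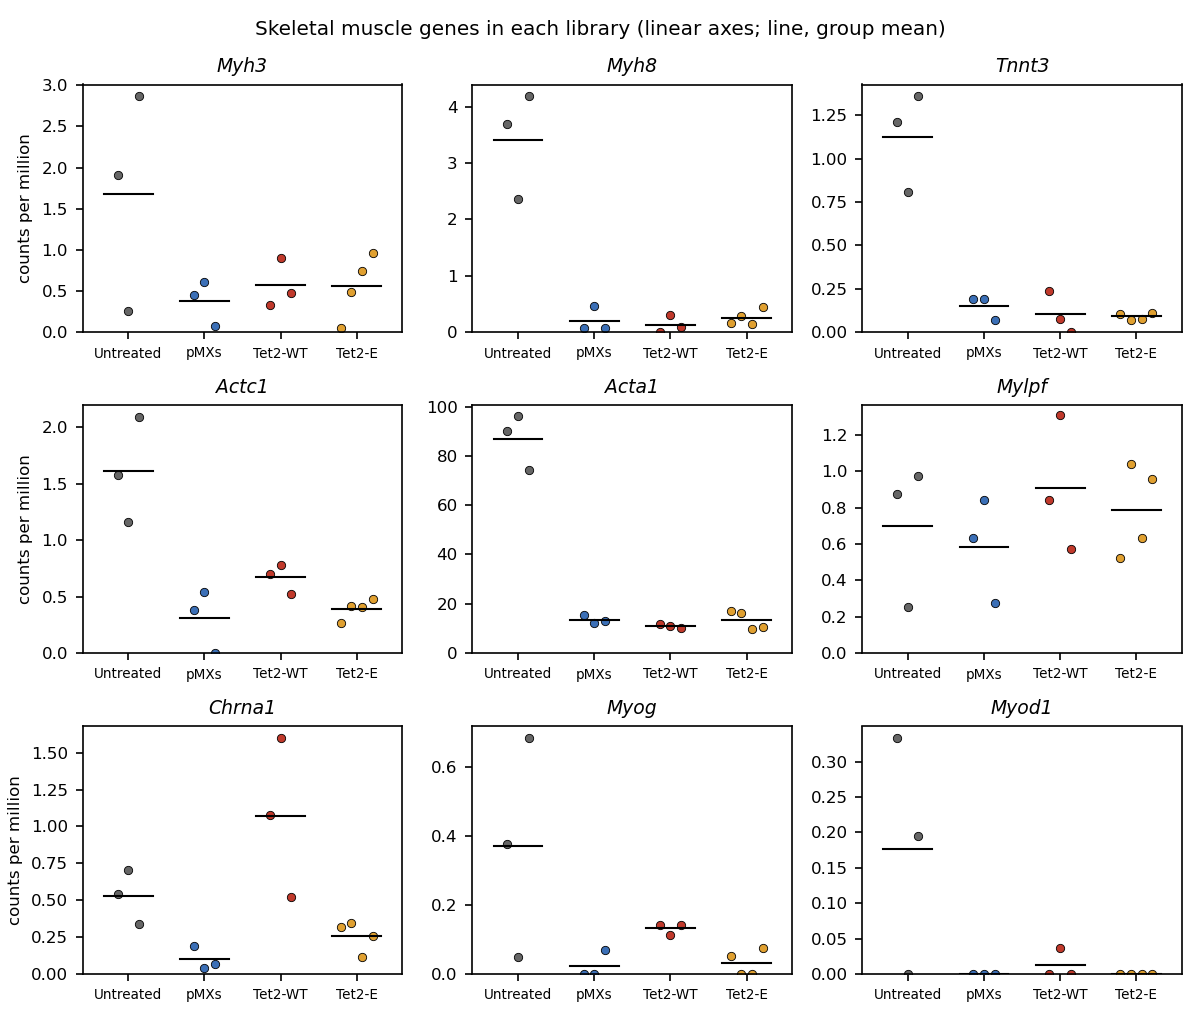
Counts-per-million (linear vertical axes) of the 9 genes in each of the 13 libraries by group, with each point a library and each line the group mean. Untreated points of Myh8, Tnnt3, Actc1 and Acta1 lie above all day 5 points, Mylpf overlaps in all groups, and Chrna1 is highest in Tet2-WT.

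Acta1 showed the best measured fall. It was 90.3, 96.2 and 74.5 CPM in Untreated replicates 1, 2 and 100. Day 5 levels were 15.5, 12.1 and 13.1 CPM with pMXs, 11.7, 11.1 and 9.98 CPM with Tet2-WT, and 17, 16.1, 9.82 and 10.5 CPM with Tet2-E. The lowest Untreated library stood above the highest day 5 library. Acta1 fell by 2.69 ± 0.19 on the log2 scale with pMXs (6.45-fold, adjusted p = 8.68e-09), by 2.99 ± 0.19 with Tet2-WT (adjusted p = 1.99e-09) and by 2.73 ± 0.17 with Tet2-E (adjusted p = 1.63e-09). Its relative Actc1, the cardiac alpha-actin that embryonic skeletal muscle also makes, was far lower. Actc1 was 1.58, 1.16 and 2.09 CPM in Untreated, 0.38, 0.536 and 0 CPM with pMXs, 0.704, 0.783 and 0.525 CPM with Tet2-WT, and 0.262, 0.415, 0.411 and 0.479 CPM with Tet2-E. No day 5 library reached the lowest Untreated one. Actc1 fell by 2.21 ± 0.46 with pMXs (adjusted p = 0.000519), by 1.25 ± 0.40 with Tet2-WT (adjusted p = 0.0104) and by 2.00 ± 0.40 with Tet2-E (adjusted p = 0.000322).

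Myh8, the perinatal myosin heavy chain, was 3.7, 2.37 and 4.19 CPM in Untreated, from 89, 47 and 86 reads. In the day 5 libraries it ranged from 0 to 0.46 CPM, or 0 to 12 reads. Its groups therefore lay well apart. Myh8 fell by 3.80 ± 0.54 with pMXs (14-fold, adjusted p = 1.52e-05), by 4.53 ± 0.57 with Tet2-WT (adjusted p = 3.3e-06) and by 3.68 ± 0.47 with Tet2-E (adjusted p = 3.89e-06). Of the 40-base windows of its transcript 26.3% also occur in another gene, mostly Myh2, Myh1 and Myh4, so the split of reads among these myosins is uncertain. Tnnt3, the fast skeletal troponin T, was 1.21, 0.806 and 1.36 CPM in Untreated and between 0 and 0.235 CPM at day 5, with at most 5 reads a library there. The groups did not overlap, and Tnnt3 fell by 2.79 ± 0.49 with pMXs (adjusted p = 0.000112), by 3.40 ± 0.51 with Tet2-WT (adjusted p = 1.9e-05) and by 3.55 ± 0.48 with Tet2-E (adjusted p = 6.36e-06).

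Myh3, the embryonic myosin heavy chain, varied more among Untreated libraries than any of these. It was 1.91, 0.252 and 2.87 CPM in Untreated replicates 1, 2 and 100. Day 5 levels were 0.0684 to 0.613 CPM with pMXs, 0.328 to 0.895 CPM with Tet2-WT and 0.0524 to 0.957 CPM with Tet2-E. Untreated replicate 2 lay inside the day 5 range. Myh3 fell by 2.02 ± 0.80 with pMXs (adjusted p = 0.036), but that call was lost without Untreated replicate 1 (adjusted p = 0.0881), Untreated replicate 100 (0.163), pMXs replicate 2 (0.0688) or pMXs replicate 250 (0.0991). It was not called with Tet2-WT (-1.52 ± 0.72, adjusted p = 0.0721) or Tet2-E (-1.49 ± 0.67, adjusted p = 0.0584). Without Untreated replicate 2 both passed, at adjusted p = 0.00584 and 0.00411, and the Tet2-E difference also passed without Tet2-E replicate 250 (0.0429).

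Mylpf, the fast skeletal regulatory light chain, did not pass in any comparison. It was 0.874, 0.252 and 0.974 CPM in Untreated, 0.634, 0.843 and 0.274 CPM with pMXs, 0.844, 1.31 and 0.573 CPM with Tet2-WT, and 0.524, 1.04, 0.635 and 0.957 CPM with Tet2-E. The 4 groups overlapped throughout. Its differences from Untreated were -0.19 ± 0.49, 0.38 ± 0.45 and 0.14 ± 0.43 for pMXs, Tet2-WT and Tet2-E (adjusted p = 0.739, 0.453 and 0.789). Untreated replicate 2 held 5 Mylpf, 5 Myh3, 1 Myog and 0 Myod1 reads, and 47 Myh8, 23 Actc1 and 16 Tnnt3 reads. For each of these genes this was fewer than in either other Untreated library. In the same library Acta1 and Chrna1 had their highest Untreated CPM. Its total of 21985590 counts was close to that of replicate 100, at 22524212.

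**Figure D2:**
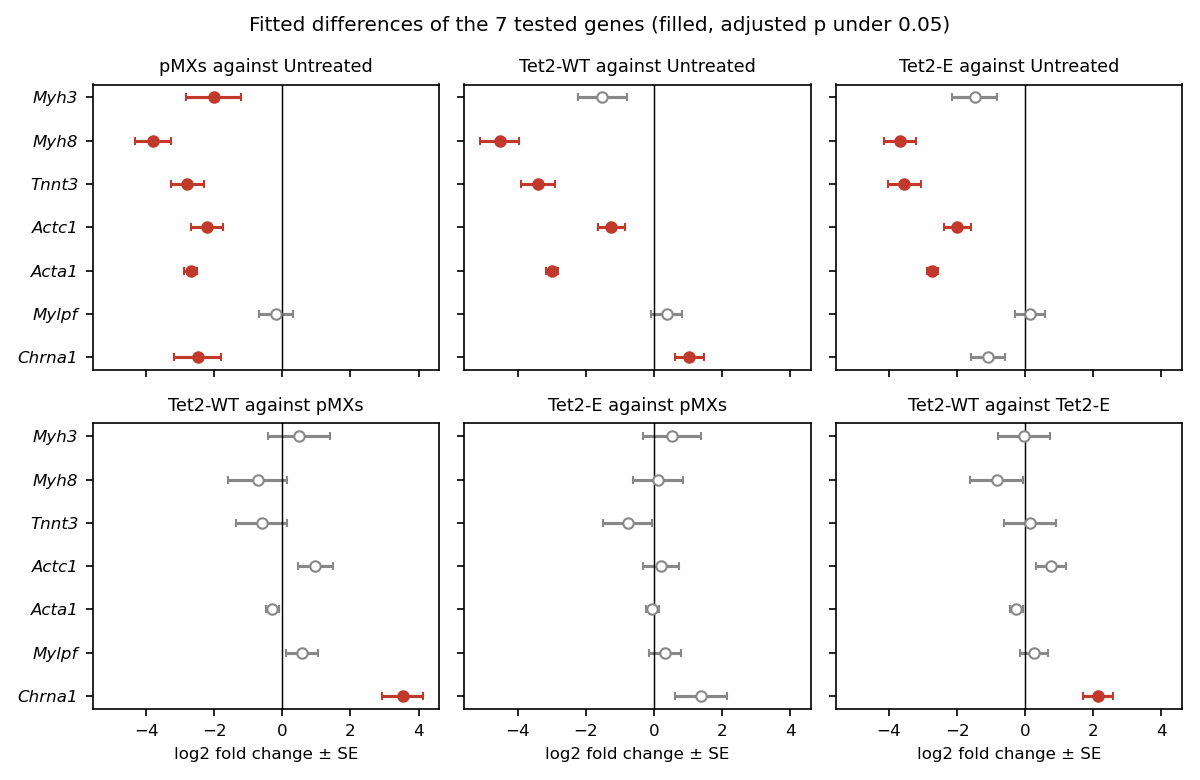
Log2 fold change ± SE of the 7 tested genes in each of the 6 comparisons, filled where the adjusted p was under 0.05. In the upper row, against Untreated, most genes lie left of 0, and in the lower row, among day 5 groups, Chrna1 alone is filled.

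Of 47 other sarcomere and Z-disc genes 24 could be tested, and with pMXs against Untreated 13 fell and 4 rose, with a median of -1.36. The share called in either direction was thus near the 70.1% of all tested genes. Of all tested genes 35% were lower and 35% higher, with a median of -0.001, so the sarcomere list leaned more to falls. The same shares apply to the lists that follow in this paragraph. Tnnt2, the cardiac troponin T that early skeletal muscle also uses, fell from 7.46 ± 1.29 to 0.293 ± 0.131 CPM (-4.68 ± 0.32, adjusted p = 4.48e-09). Mylk2, the skeletal myosin light chain kinase (-3.94 ± 0.38), and Myh1, a fast adult myosin (-3.88 ± 0.45), fell to below 0.2 CPM. Against this direction, Myoz2, a Z-disc binder of calcineurin, rose from 0.22 ± 0.229 to 3.4 ± 0.951 CPM (3.82 ± 0.55, adjusted p = 2.42e-05). Myh7b (2.12 ± 0.29), Mybpc2 (2.37 ± 0.45) and Xirp1 (2.17 ± 0.79) rose too. Of 28 genes of calcium handling and muscle energy use 14 could be tested, and 4 rose and 7 fell, with a median of -0.62. Casq2, a calcium store protein of slow and cardiac muscle, fell (-2.99 ± 0.42), while its fast-muscle counterpart Casq1 (1.33 ± 0.25) and the calcium release channel Ryr1 (1.90 ± 0.29) rose. Of 8 myoblast surface genes 7 could be tested, 5 fell and none rose, with a median of -0.67. Megf10 was at -1.17 ± 0.19 and Vcam1 at -1.14 ± 0.10, while Itga7 (-0.21 ± 0.14) and Fgfr4 (0.48 ± 0.52) were not called. Cdh15 was too low to test, at 0.157 CPM in Untreated and 0.148 CPM with pMXs.

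**Figure D3:**
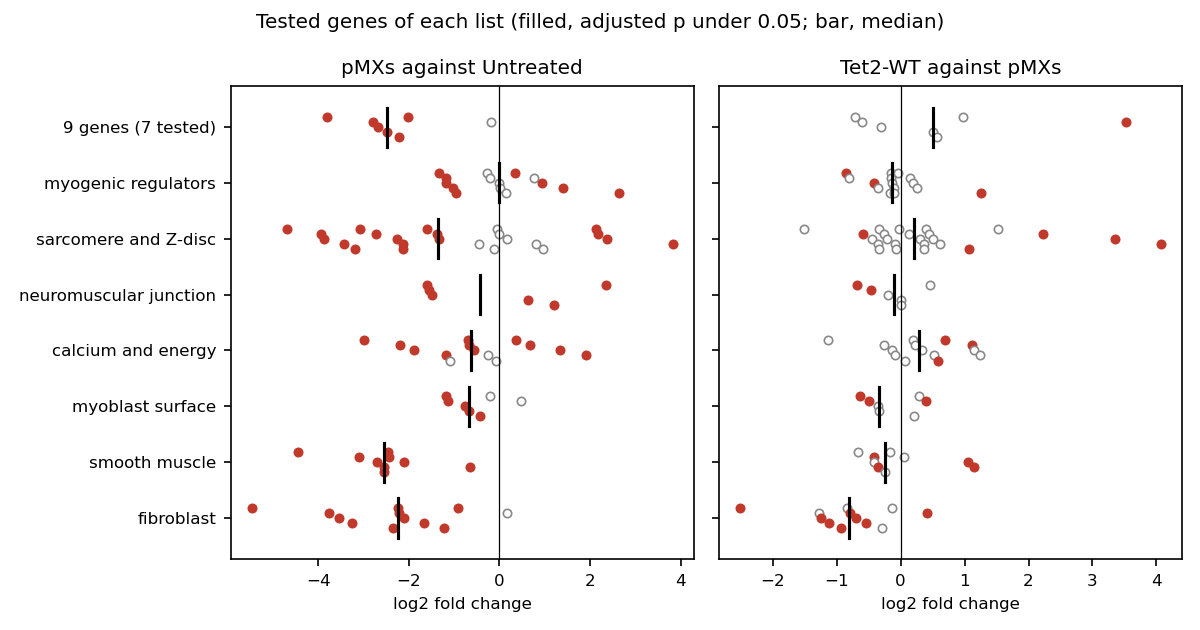
Log2 fold change of every tested gene of each list, with pMXs against Untreated on the left and Tet2-WT against pMXs on the right, filled where the adjusted p was under 0.05, with a bar at the median. The smooth muscle, fibroblast and sarcomere lists lie mostly left of 0 on the left side, and few muscle genes are filled on the right.

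Markers of other cell types moved alongside. Over all tested genes 70.1% were called with pMXs against Untreated, 35% lower and 35% higher. Smooth muscle markers fell with pMXs in 9 of 9 genes (median -2.55), and their summed level was 4477 to 5856 CPM in Untreated, 915 to 1004 CPM with pMXs, 858 to 928 CPM with Tet2-WT and 920 to 1162 CPM with Tet2-E, with no gene at 0. Fibroblast markers fell in 11 of 12 (median -2.23), to sums of 25491 to 28938, 18762 to 20251 and 22937 to 23731 CPM in the same order, again with no gene at 0. Cardiomyocyte markers rose in 2 and fell in 3 of 6 tested, and their sums were 26 to 30.3 CPM in Untreated and 20.9 to 23.6 CPM with pMXs, with 2 of 12 genes at 0 in each. Of the neural crest and neural markers 6 could be tested, and 1 was higher and 3 were lower. Of the endothelial markers 2 could be tested, and 1 was higher. The part of these cells in the falls of Acta1, Actc1, Myh8 and Tnnt3 was not tested.

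Chrna1 had its highest levels with Tet2-WT. This gene encodes the alpha subunit of the muscle acetylcholine receptor, which binds acetylcholine. It was 0.541, 0.705 and 0.341 CPM in Untreated, from 13, 14 and 7 reads, and 0.19, 0.0383 and 0.0684 CPM with pMXs, from 3, 1 and 1 reads. Tet2-WT replicates 1, 2 and 250 had 1.08, 1.6 and 0.525 CPM, from 23, 43 and 11 reads, and the Tet2-E libraries had 0.315, 0.346, 0.112 and 0.258 CPM, from 6, 5, 3 and 7 reads. All Tet2-WT libraries stood above all pMXs and all Tet2-E libraries, while Tet2-WT replicate 250 lay inside the Untreated range.

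Against Untreated, Chrna1 fell by 2.49 ± 0.69 on the log2 scale with pMXs (adjusted p = 0.00481), and the difference with Tet2-E was not called (-1.10 ± 0.50, adjusted p = 0.0609, and 0.0377 without Untreated replicate 100). With Tet2-WT it was higher than in Untreated by 1.04 ± 0.42 (adjusted p = 0.0365), although the groups overlapped. That call was lost without Untreated replicate 1 (adjusted p = 0.0742) or 100 (0.118), and without Tet2-WT replicate 1 (0.0659) or 2 (0.257). It was also lost with DESeq2 (0.0969), with only the 2 groups fitted (0.0564), and among libraries numbered 100 and 250, with 1 library in each group.

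Chrna1 rose with Tet2-WT over the empty vector by 3.53 ± 0.61 on the log2 scale (11.5-fold, adjusted p = 0.00132). It was the only one of the 7 tested genes called in this comparison, in which 12.5% of all tested genes were called and 6.01% were higher. Between Tet2-WT and Tet2-E Chrna1 differed by 2.14 ± 0.44 (4.41-fold, adjusted p = 0.00999), again as the only one of the 7, where 4.62% of all tested genes were called and 2.43% were higher. As Chrna1 passed the filter through the group where it was highest, these calls were also read with no filter, where the differences were 3.52 (adjusted p = 0.000536) and 2.14 (0.00636). Without Tet2-WT replicate 2 that difference was 1.7 (adjusted p = 0.0931). With Tet2-E against pMXs it was not called, at 1.39 ± 0.76 (adjusted p = 0.6). In that comparison none of the 7 passed in edgeR, none had an unadjusted p under 0.05, and DESeq2 also called none. No gene of the 7 was free of overlap there, against 10.2% of all tested genes. Over all genes edgeR called 7 (0.0479%), and 93 with the replicate number as a block.

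The libraries were prepared in 2 sets that the labels do not assign. Replicates numbered 1 and 2 and those numbered 100 and 250 behaved as 2 sets, as read from the numbers, and Tet2-WT had 2 libraries of the first and 1 of the second, against 1 and 2 for pMXs. The Chrna1 difference between Tet2-WT and pMXs was 2.80 among libraries numbered 1 and 2, where pMXs had 1 library. It was 3.28 among those numbered 100 and 250, where Tet2-WT had 1 library. Between Tet2-WT and Tet2-E the Chrna1 difference was 2.03 ± 0.43 (adjusted p = 0.0121) in the first set. In the second it was 1.48 and was not called, again with 1 Tet2-WT library. The spread of an arm with 1 library was assumed to be that of the other groups, so only sizes are given there.

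The other 6 tested genes showed no call among the day 5 groups. With Tet2-WT against pMXs the differences were 0.50 ± 0.91 for Myh3, -0.72 ± 0.87 for Myh8, -0.61 ± 0.74 for Tnnt3, 0.97 ± 0.51 for Actc1, -0.30 ± 0.19 for Acta1 and 0.57 ± 0.47 for Mylpf (adjusted p from 0.262 to 0.799). For Myh3, Myh8 and Tnnt3 the SE was 0.74 to 0.91 on the log2 scale, so that changes of that size could not be told from the spread. A change had to exceed its SE clearly to be called, so larger ones could be missed too. Acta1 was lower in every Tet2-WT library than in every pMXs library, and 34.6% of all tested genes likewise did not overlap. With a term for the set its difference was -0.44 ± 0.11 (adjusted p = 0.0137), and among libraries numbered 1 and 2 it was -0.54 ± 0.11 between Tet2-WT and Tet2-E (adjusted p = 0.00849). Actc1 was higher in every Tet2-WT library than in every Tet2-E library, as Chrna1 was, where 15% of all tested genes did not overlap, but the difference of 0.76 ± 0.45 was not called (adjusted p = 0.488).

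None of the 6 other neuromuscular junction genes that could be tested rose with Tet2-WT over pMXs. Chrnb1, the receptor's beta subunit, rose from 7.65 ± 0.327 CPM in Untreated to 17.6 ± 1.37 CPM with pMXs (1.20 ± 0.12, adjusted p = 3.21e-07), and stood at 17.8 ± 1.38 CPM with Tet2-WT and 16.2 ± 2.23 CPM with Tet2-E. Chrnd and Chrng, the subunits that complete the embryonic receptor, had 1 and 2 reads in Untreated replicate 100 and 0 in all other libraries. Musk, the kinase that organises the junction, had 0 reads in Untreated, 2 with pMXs, 13 with Tet2-WT and 2 with Tet2-E, and was too low to test. Lrp4, the agrin receptor, rose with pMXs from 42.2 ± 5.14 to 216 ± 8.62 CPM (2.35 ± 0.13, adjusted p = 3.46e-10) and was lower with Tet2-WT than with pMXs (-0.46 ± 0.12, adjusted p = 0.0185). In this list of 11, with pMXs against Untreated 3 rose and 3 fell (median -0.43), and with Tet2-WT against pMXs none rose and 2 fell, Lrp4 and Agrn (-0.68 ± 0.10). Over all tested genes 70.1% were called in the first of these comparisons and 12.5% in the second.

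**Figure D4:**
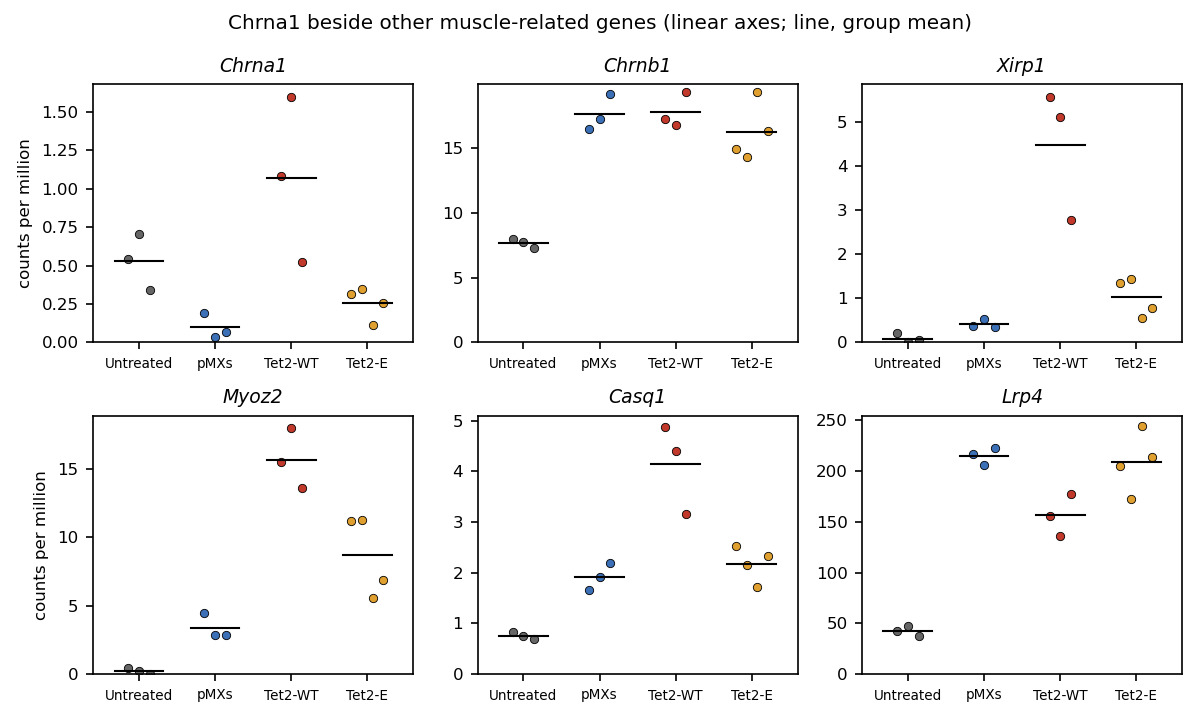
Counts-per-million (linear vertical axes) of Chrna1, Chrnb1, Xirp1, Myoz2, Casq1 and Lrp4 in each library by group, with each line the group mean. Chrna1, Xirp1, Myoz2 and Casq1 have their highest mean in Tet2-WT, while Chrnb1 lies between 14.3 and 19.3 CPM in all day 5 libraries and Lrp4 is lower in Tet2-WT than in pMXs.

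Several genes of the muscle lists were higher with Tet2-WT than with pMXs, as Chrna1 was. In the sarcomere list 4 of 24 rose and 1 fell (median 0.21), in the calcium and energy list 3 of 14 rose and none fell (0.28), and in the regulator list 1 of 15 rose and 2 fell (-0.14), where 12.5% of all tested genes were called and 6.01% were higher. Xirp1, an actin-binding protein of muscle attachment sites, was 0.38, 0.536 and 0.342 CPM with pMXs, 5.58, 5.11 and 2.77 CPM with Tet2-WT, and 1.36, 1.45, 0.56 and 0.773 CPM with Tet2-E. Its Tet2-WT libraries stood above all others, by 3.35 ± 0.44 over pMXs (adjusted p = 0.000144) and by 2.19 ± 0.34 over Tet2-E (adjusted p = 0.00163). Myoz2 rose over pMXs from 3.4 ± 0.951 to 15.7 ± 2.19 CPM (2.22 ± 0.32, adjusted p = 0.000381), and its difference from Tet2-E was not called (0.87 ± 0.26, adjusted p = 0.0813). Casq1 rose to 4.14 ± 0.891 CPM (1.11 ± 0.21 over pMXs, adjusted p = 0.00217) and was higher than with Tet2-E (0.94 ± 0.18, adjusted p = 0.00731). Myh2 (1.07 ± 0.26) and Smyd1, a muscle methyltransferase (1.25 ± 0.35), rose over pMXs, and neither was called against Tet2-E (0.44 ± 0.22, adjusted p = 0.375, and 1.10 ± 0.31, adjusted p = 0.0531). Myom1, which links myosin filaments, fell against pMXs (-0.58 ± 0.12). Lmod2, named after its values were seen, rose from 0.0356 CPM, from 2 reads in all, to 0.677 CPM, from 48 reads (adjusted p = 0.00578). In the myoblast surface list 1 of 7 rose and 2 fell (-0.33).

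Genes of other cell types also moved with Tet2-WT. Over all tested genes 12.5% were called with Tet2-WT against pMXs, and 6.01% were higher. Actg2, a smooth muscle actin, rose over pMXs from 58.2 ± 11.3 to 129 ± 6.56 CPM (1.15 ± 0.16), and in its list 2 of 9 rose and 2 fell (median -0.25). Nppb, a natriuretic peptide of heart muscle, rose from 8.88 ± 1.01 to 31.7 ± 6.98 CPM (1.83 ± 0.19), the only cardiomyocyte marker of 6 tested that was called. The sums of the 12 cardiomyocyte markers were 37.1 to 46.1 CPM with Tet2-WT and 26.7 to 30.9 CPM with Tet2-E, with 1 gene at 0 in each. Macrophage markers rose in 3 of 5 tested (median 1.72), Itgam by 3.18 ± 0.26 and Cd68 by 1.72 ± 0.19 among them, and their 7 genes summed to 6.09 to 7.73 CPM with pMXs, 23 to 29.1 CPM with Tet2-WT and 7.8 to 12.2 CPM with Tet2-E. The defining macrophage genes Adgre1 and Ptprc had 0 and 1 reads with Tet2-WT. Fibroblast markers fell in 7 and rose in 1 of 12 (median -0.81), neural markers fell in 3 of 6 and endothelial ones in 1 of 2, with none higher. The part of these cells in the Chrna1 difference was not tested.

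The genes most like each of the 7 across the 13 libraries were found by Pearson's r of log2 CPM, as a description with no test. For Acta1 they were Unc5b (1.00), Ltbp1 (0.99) and Ddit3 (0.99), and 2321 genes had an r above 0.9. For Tnnt3 they were Asphd2, Hic1 and Tsc1 (0.97 to 0.98), and for Myh8 Tmem258, Gmppa and Foxd2 (0.95 to 0.96), with 978 and 778 genes above 0.9. These values follow mainly the step from Untreated to day 5. With pMXs 70.1% of all tested genes were called in that step, and 35% were lower, as Acta1, Tnnt3 and Myh8 were. For Chrna1, which has another pattern, 12 genes were above 0.9, led by Ptpre, Actg2 and Prkar1b (all 0.93). Actc1 had 3 such genes, Plscr4, Cend1 and Slc10a3 (0.91), and Myh3 and Mylpf had none, with Ccdc30 (0.89) and Mroh8 (0.83) first. With each group's mean taken off, Chrna1 was most like Miat (0.94) and Acta1 most like Vnn1 (0.96), Actn1 (0.95) and Fbln2 (0.95).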

How the data were processed

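Messenger RNA libraries (KAPA stranded kit, pairs of 40-base reads) were made from Untreated and day 5 cultures. The deposited values are raw read counts per gene. Per the submitters' processing notes the tools were STAR 2.6.1a, SAMtools 1.7, bedtools 2.27.1, featureCounts 1.6.2, R 3.6.2 and DESeq2 1.26.0, with build mm9. How the counting treated strand is not given in the sources used here. All 13 count columns matched a library by name.

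The analysis used edgeR 4.0.16 under R 4.3.3. The filterByExpr filter by group (count minimum 10, total minimum 15) kept 14607 of 24495 genes. Myog and Myod1 failed that filter. After TMM scaling, all 6 comparisons were read from 1 robust quasi-likelihood fit over the 4 groups, with no block. The SE is the absolute log2 fold change divided by the square root of F. The common biological coefficient of variation was 0.102, and replicates differed by more than counting error (chi-square per degree of freedom from 6.3 to 40.4). Replicates are not stated to be separate cultures, so p-values cover only the spread among the libraries at hand.

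The 9 genes, the lists and the tests were chosen with earlier results of these data known. Named genes were the 9, Tet2 and Pou5f1. From each list and comparison came up to 3 called genes a direction, ranked by absolute change among those at 1 CPM or more in a group, and from each tested gene the 3 most like it. Genes outside this rule (Ckm, Mb, Myl1, Myf5, Myf6, Pax7, Mef2d, Cdh15, Fgfr4, Chrnd, Chrng, Musk, Lmod2, Adgre1, Ptprc, and Des and Tpm2 as levels) were chosen after their values were seen. Lists held myogenic regulators, sarcomere and Z-disc, neuromuscular junction, calcium and energy, and myoblast surface genes, and markers of fibroblasts, smooth muscle, cardiomyocytes, macrophages, endothelium and neural cells.

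Same-numbered libraries of different day 5 groups correlated at 0.12 to 0.34 across genes after group means were removed, and those from opposite sets at -0.42 to -0.05. With Untreated, same-numbered pairs gave -0.04 to 0.17. With 3 pairs each, the numbers were taken to pair Tet2-E with pMXs and with Tet2-WT, mostly through the sets. Untreated with Tet2-E also had 3 pairs (-0.04 to 0.07) and was not taken to pair. The rule asked for at least 3 pairs, so it could not decide the groups with 2. These were pMXs with Tet2-WT, at 0.22 to 0.28, and Untreated with pMXs and with Tet2-WT. Alternatives were a replicate block, a term for the set, RLE size factors, the Wald test of DESeq2 1.42.0, the 2 groups fitted alone, each library left out in turn, no filter, and a filter of 1 CPM in 3 libraries. Fits within a set were chosen after seeing the data. Transcript lengths and shared 40-base windows came from GENCODE M21. The procedure was tested on simulated data.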

Additional observations from a re-analysis of the deposited data

Results flagged for a closer look

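None of the 9 genes had a Tet2-E library far from the other 3, the only group large enough for this check. Among 76 genes checked, 3 muscle-related ones did, where chance flags about 1 in 20 groups. Ryr1, the calcium release channel, was 3.36 CPM in Tet2-E replicate 1 and 2.17 to 2.36 CPM in the other Tet2-E libraries. Fbxo32, a ubiquitin ligase of muscle wasting, was 56.8 CPM in Tet2-E replicate 250 and 46.4 to 47.9 CPM in the others. Myocd, a coactivator of smooth muscle genes, was 1.73 CPM in Tet2-E replicate 2 and 1.1 to 1.16 CPM in the others. Tet2 itself was not among the genes checked. It was 581 CPM in Tet2-E replicate 100 and 1299 to 1403 CPM in the other Tet2-E libraries, so that library stood apart in Tet2 RNA. Counts of called genes without it are given below.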

How the results depend on the processing

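Over 617 combinations of a gene and an alternative, 554 kept their direction and side of the threshold, 17 lost the call, 12 gained it and 34 changed sign, and no value that changed sign was called. RLE in place of TMM moved the median of all genes by at most 0.015 in size. With at least 1 CPM in 3 libraries only 3 of the 9 genes were tested, and calls went from 6 to 3 with pMXs against Untreated, from 5 to 3 with Tet2-WT against Untreated, and from 1 to 0 with Tet2-WT against pMXs and against Tet2-E. These drops came from genes that the filter left out, so they are not calls that failed in a test. Chrna1 was left out because it reached 1 CPM only in Tet2-WT replicates 1 and 2. Between Tet2-WT and pMXs, the replicate block and the set term each called 2 in place of 1, adding Acta1 (-0.47 with the block, adjusted p = 0.0209). Between Tet2-WT and Tet2-E, 2 were called within numbers 1 and 2, 0 within 100 and 250, and 0 to 1 with 1 library left out, 0 without Tet2-WT replicate 2. The replicate block also called Myh3 with Tet2-E against Untreated (adjusted p = 0.0444) and changed no other call of the 9 genes. Myh3 with pMXs against Untreated was lost with no filter (0.0754) and with only the 2 groups (0.0637). Within numbers 1 and 2, where pMXs had 1 library, Myh3 and Chrna1 were both lost, and the causes were not tested. Myh3 gained a call with the set term with Tet2-WT (0.0451) and Tet2-E (0.0147) against Untreated. Within 100 and 250 it gained both as well, but Untreated and Tet2-WT each had 1 library there, with a spread taken from the other groups.

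All genes called with Tet2-WT against pMXs were 1830, 1097 to 1821 with 1 library left out (lowest without pMXs replicate 250) and 1011 within numbers 1 and 2. With Tet2-E against pMXs they were 7, 129 with DESeq2, 17 without a filter, 93 with the block, 152 with the set term, 0 with only the 2 groups, 77 and 147 within the sets, and 1 to 50 with 1 library left out (50 without Tet2-E replicate 100). With Tet2-WT against Tet2-E they were 675, 1052 with the set term and 335 to 675 with 1 library left out (lowest without Tet2-WT replicate 1).

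Sign changes against Untreated were in Mylpf only, with pMXs 0.11 within numbers 1 and 2 and -0.62 to 0.09 with 1 library left out, with Tet2-WT -0.75 within 100 and 250, and with Tet2-E -0.28 within 100 and 250 and -0.24 to 0.41 with 1 left out. With Tet2-WT against pMXs, leaving 1 out gave -0.03 to 1.14 for Myh3 and -2.20 to 1.05 for Myh8. Within numbers 1 and 2 Myh8 was 1.30, and within 100 and 250 Mylpf was -0.12. With Tet2-E against pMXs, numbers 1 and 2 gave -0.87 for Myh3, -0.21 for Actc1 and 0.09 for Acta1, and 100 and 250 gave -0.08 for Myh8. Leaving 1 out gave -0.37 to 1.90 for Myh8, -0.24 to 0.99 for Actc1 and -0.19 to 0.09 for Acta1. With Tet2-WT against Tet2-E, Myh3 was 0.37 with the replicate block, 0.28 with the set term, 1.38 within numbers 1 and 2 and -0.56 to 0.36 with 1 left out. Within 100 and 250 Tnnt3 was -4.16 and Mylpf -0.47, and leaving 1 out gave -1.03 to 0.65 and -0.14 to 0.48. At 0 to 43 reads a day 5 library, depth limits every gene but Acta1.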

Other observations

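The muscle lists were also counted in Tet2-WT and Tet2-E cultures against Untreated. In the sarcomere and Z-disc list 7 rose and 12 fell of 24 with Tet2-WT, and 4 rose and 13 fell with Tet2-E. In the calcium and energy list 4 rose and 5 fell of 14 with Tet2-WT, and 4 rose and 7 fell with Tet2-E. In the myoblast surface list none rose and 6 fell of 7 in each. Regulators rose in 5 and fell in 7 of 15 with Tet2-WT, and rose in 6 and fell in 7 with Tet2-E. Of all tested genes 72.7% were called with Tet2-WT (37.3% higher and 35.3% lower) and 72.8% with Tet2-E (36.7% and 36.1%), so several of these shares are near the background. Whether these counts differ was not tested, and the comparisons share the Untreated libraries.

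Without Acta1 the other 8 genes summed to 10.5, 5.59 and 12.7 CPM in Untreated replicates 1, 2 and 100. With pMXs the sums were 1.9, 2.68 and 0.616 CPM, with Tet2-WT 3.33, 5.11 and 2.34 CPM, and with Tet2-E 1.47, 2.63, 2.13 and 3.28 CPM. The lowest Untreated sum stood above the highest day 5 sum. Untreated replicate 2, which had the fewest Myog and Myod1 reads of its group, also had the lowest of the Untreated sums.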
